A study of Arabidopsis thaliana with 6 samples.

Results

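The WRKY family of *Arabidopsis thaliana* transcription factors was followed in leaves of the catalase mutant *cat2-2*, before and after a move from high CO2 to high light in ambient air. The members are 57 gene loci of WRKY groups I, II and III, taken by a list of loci from the 33602 genes of the table. Another 15 annotated WRKY genes of the table were not on the list. WRKY proteins carry 1 or 2 copies of a DNA-binding domain with the signature WRKYGQK beside a zinc finger. They bind the W-box, a short promoter element with the core TTGAC. In leaves the family is known for its part in pathogen defence, salicylic acid signalling, senescence and responses to oxidative and heat stress. Many members are themselves induced within hours, and some act as activators and others as repressors.

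The series measured messenger RNA in 6 libraries. All plants carried *cat2-2*, a mutant of the main leaf catalase, in the Columbia-0 background, and wild-type plants are not part of the comparison. They were grown for 3 weeks at 3000 ppm CO2, 120 µmol m-2 s-1 light, 75% humidity and 21 °C with 16 h days and 8 h nights. The 3 high CO2 libraries were sampled there at 0 h. The 3 high light libraries were sampled after 3 h at 400 ppm CO2, 1200 µmol m-2 s-1 and 55% humidity in another growth chamber. Each library pooled middle-aged leaves of 15 plants, and the labels call the 3 repeats of the set-up biological. CO2, light, humidity, chamber and hour of sampling changed together, so their parts in a difference cannot be told apart.

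Library totals ran from 18047295 to 24149149 counts. Of all genes, 18504 had enough counts to be tested, and their median log2 fold change of high light over high CO2 was -0.06. The mesophyll markers, a list of 5 photosynthesis genes, were abundant in every library, as leaf tissue has them, at a summed 46342 to 69700 library-scaled counts (CPM) in high CO2 and 22820 to 34149 CPM in high light. All 5 fell. Of 3 root hair markers, RHD6 and COBL9 were at 0 in all libraries and EXPA7 was at 0 in high CO2 and at 12, 2 and 5 counts in high light. The summed level of 5 guard cell markers was 51.6 to 55.3 CPM in high CO2 and 48.2 to 63.1 CPM in high light, with 1 risen, 2 fallen and 2 not called. Of 4 trichome markers 2 fell, 1 was not called and GL1 had 1 count in all, and their sum went from 3.64 to 4.22 CPM in high CO2 to 2.12 to 2.59 CPM in high light. Of 6 vascular markers 4 fell and 2 were not called, and their sum went from 553 to 591 CPM in high CO2 to 375 to 414 CPM in high light. The risen guard cell marker, KAT1, was not called with upper-quartile factors (log2 fold change 0.36, edgeR adjusted p = 0.10). The falls of LHCB1.3, GL2, SUC2, APL, AHA3 and XCP1 were each no longer called without at least 1 of the libraries. The part of these shifts in the WRKY values was not tested. In whole leaves, fewer cells of a type and less RNA per cell cannot be told apart.

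The signature that defines the family is shown for 3 members as coding DNA from the first base of the tryptophan codon, 21 bases long, with the codon of the sixth residue in capitals. WRKY40 carries the common WRKYGQK form. WRKY50 and WRKY51 carry a lysine codon there, the substitution C16A counted from 1 at the 5′ end of the stretch.
WRKY40: tggaggaaatatggaCAGaaa
WRKY50: tggagaaagtatgggAAGaag
WRKY51: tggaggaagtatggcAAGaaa

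The upstream sequences of 3 of the most induced members are printed as examples with and without W-boxes. Each is the 300 bases before the annotated gene start in TAIR10.1 (RefSeq), 5′ to 3′ on the gene's strand, and TTGACC and TTGACT on either strand are in capitals. WRKY33 lies on the plus strand (chr2:16107935-16108234) and holds 3 W-boxes, whose first bases are at positions -292, -96 and -32. WRKY30 lies on the minus strand (chr5:8154711-8155010) and also holds 3, at -124, -69 and -61. WRKY40 lies on the plus strand (chr1:30383261-30383560) and holds 0 in this window, though the core TTGAC is there on the opposite strand. WRKY33 and WRKY30 hold more W-boxes than any other member. WRKY75 and WRKY48, also strongly induced and not printed, hold 1 each.
WRKY33: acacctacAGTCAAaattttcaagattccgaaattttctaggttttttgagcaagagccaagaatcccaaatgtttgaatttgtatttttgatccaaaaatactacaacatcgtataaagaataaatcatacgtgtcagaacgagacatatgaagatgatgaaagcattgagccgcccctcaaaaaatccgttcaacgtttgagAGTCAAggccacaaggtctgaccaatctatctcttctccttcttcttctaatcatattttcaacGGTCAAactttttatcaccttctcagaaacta
WRKY30: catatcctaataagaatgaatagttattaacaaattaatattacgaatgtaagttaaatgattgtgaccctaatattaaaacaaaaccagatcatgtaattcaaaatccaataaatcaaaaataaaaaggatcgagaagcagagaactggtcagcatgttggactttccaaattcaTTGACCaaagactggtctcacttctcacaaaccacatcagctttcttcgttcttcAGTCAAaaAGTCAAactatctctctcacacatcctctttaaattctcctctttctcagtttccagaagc
WRKY40: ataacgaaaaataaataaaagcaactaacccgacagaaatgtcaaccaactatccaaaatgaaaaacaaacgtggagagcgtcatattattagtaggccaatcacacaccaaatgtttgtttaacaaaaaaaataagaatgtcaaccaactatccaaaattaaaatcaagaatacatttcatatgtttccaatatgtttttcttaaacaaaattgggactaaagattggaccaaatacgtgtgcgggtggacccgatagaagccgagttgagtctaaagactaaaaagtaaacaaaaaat

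The share of transcripts that the family takes up was many times higher after the 3 h than before. WRKY members took 0.0330%, 0.0376% and 0.0456% of all counts under high CO2, and 0.361%, 0.356% and 0.419% under high light. Every high light library stood above every high CO2 library. The mean share went from 0.0388% ± 0.00635 (SD, n = 3) to 0.379% ± 0.0350 (SD, n = 3), a 9.77-fold ratio. An exact two-sided permutation test gave p = 0.1, the smallest that 3 against 3 libraries allow. The 10 most counted genes took 10.2% to 12.3% of counts in high CO2 and 5.25% to 6.45% in high light. Outside these genes the ratio was 9.19-fold.

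Scaled by library size and expressed per kilobase of exon (RPKM, which allows genes of different length to be compared), the members summed to 179, 213 and 222 in high CO2 and to 2166, 1941 and 2468 in high light. The means were 205 ± 22.7 and 2192 ± 265 RPKM (SD, n = 3 each), a 10.7-fold ratio (exact permutation p = 0.1). The median member level went from 1.32 to 5.99 RPKM. Members with a mean of at least 10 RPKM went from 5 to 21, and members at 100 RPKM or more from 0 to 7.

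**Figure D1:**
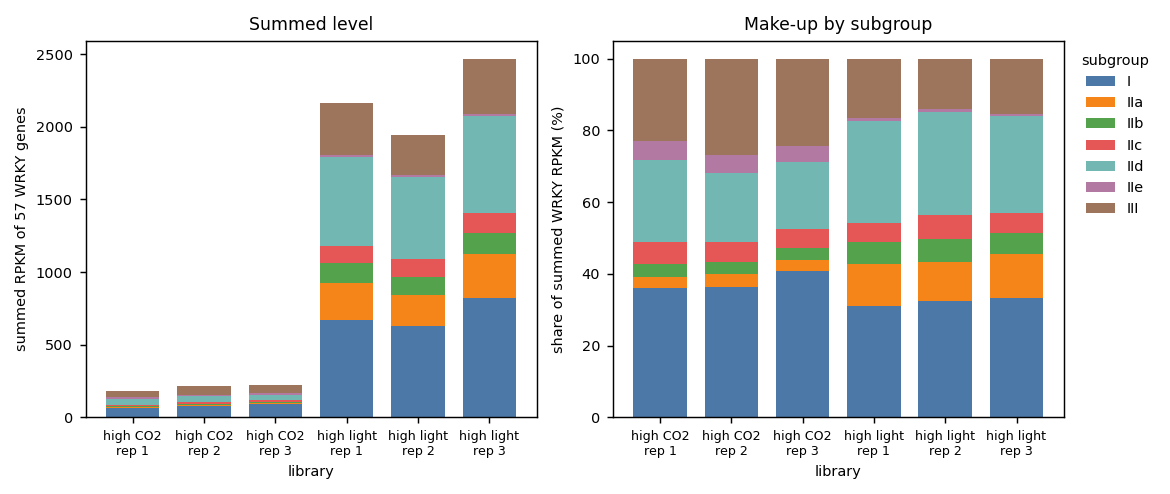
Left, summed RPKM of the 57 WRKY genes in each of the 6 libraries, stacked by subgroup. Right, the share of each subgroup in that sum in percent. The sum lies between 179 and 222 in high CO2 and between 1941 and 2468 in high light, and subgroups IIa, IIb and IId take a larger share in high light.

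Of the 57 members, 30 rose and 3 fell in high light by edgeR's quasi-likelihood test at a Benjamini-Hochberg adjusted p under 0.05, 11 were tested and not called, and 13 had too few counts to be tested. Over all 18504 tested genes 30.4% were called higher and 30.3% lower by the same rule, against 52.6% of the 57 members higher. The 52.6% counts the 13 untested members as not risen. Of the 30 risen members, 28 rose at least 2-fold (19.1% of all tested genes did), 16 at least 8-fold (5.79% of all) and 12 at least 16-fold (3.68% of all). Of the 5631 genes called higher, 3529 rose at least 2-fold, 1072 at least 8-fold and 681 at least 16-fold. In all 30 risen members every high light library stood above every high CO2 library, and in all 3 fallen members below. Over all tested genes, groups did not overlap in 33.3%, higher in high light, and in 33.9%, lower in high light. Calls and overlap rest on the same values, so the lack of overlap in called members adds little to their calls. Of the 44 tested members, 36 passed the low-count filter of 0.458 CPM in every high CO2 library, and 24 of those rose. Another 7 (WRKY28, WRKY29, WRKY38, WRKY41, WRKY42, WRKY55 and WRKY75) passed in all 3 high light libraries but not in all 3 high CO2 libraries, and 6 of those rose. The 6 could be tested because they were high in high light, so their calls add nothing to the count of 24. They are also within the fold counts above. All 6 rose at least 2-fold, all but WRKY42 at least 8-fold, and WRKY28 and WRKY75 at least 16-fold. Those fold counts therefore rest in part on members that their rise let be tested. WRKY29 had no such rise, with 0.840 ± 0.371 CPM before the move and 0.733 ± 0.160 CPM after it (SD, n = 3 each). With upper-quartile scaling the median of all genes moved to -0.33, 28 members were called risen and 8 fallen.

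**Figure D2:**
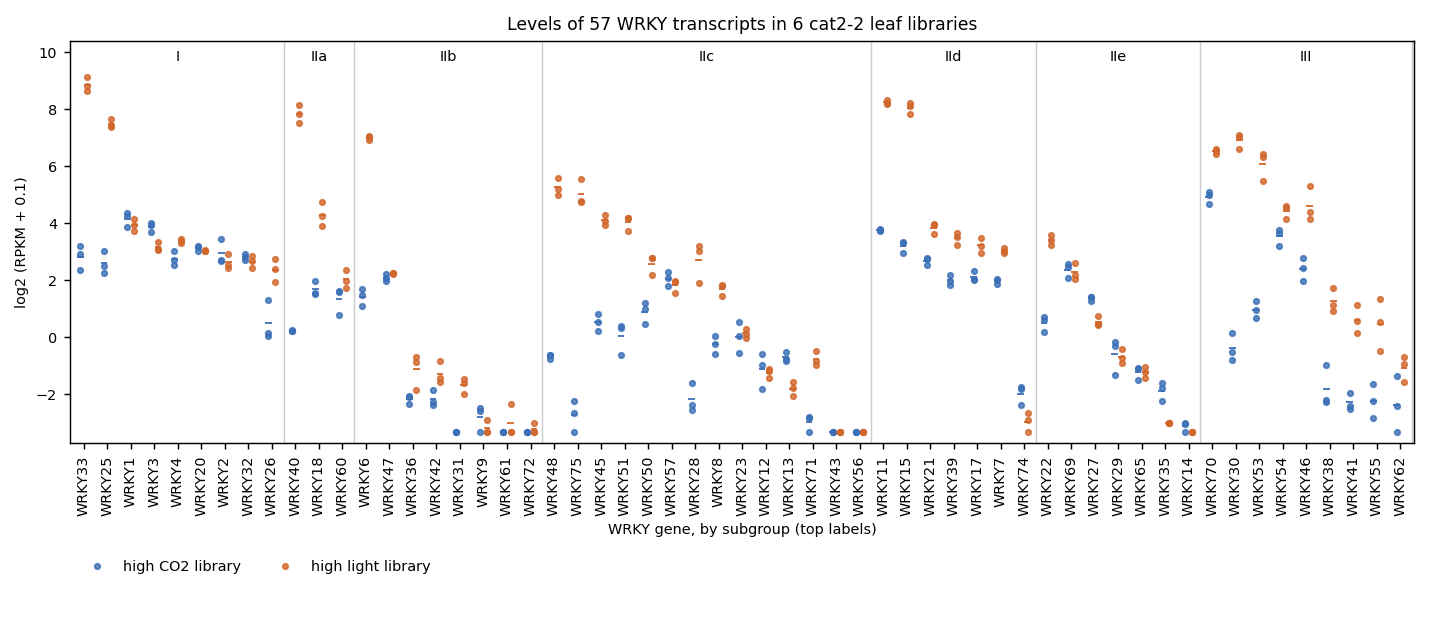
Level of each of the 57 WRKY genes in the 6 libraries, as log2 of RPKM plus 0.1, by subgroup. Points are libraries and short lines are means of the plotted values. WRKY33 is highest in high light at 398 to 555 RPKM, and WRKY43 and WRKY56 sit at the bottom with 0 counts in every library.

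**Figure D3:**
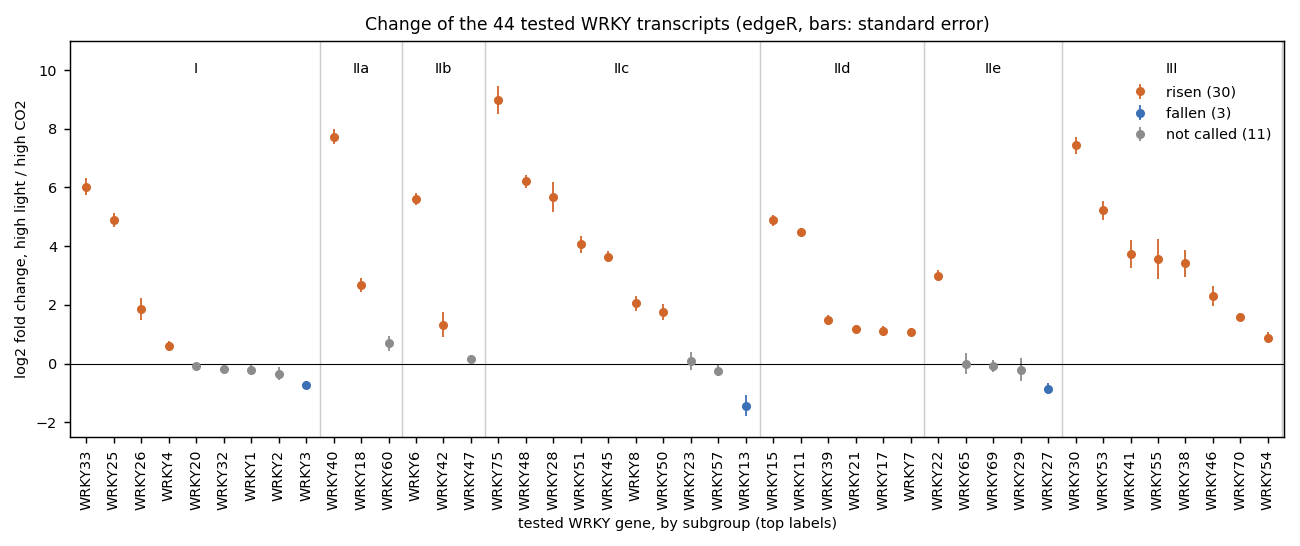
Log2 fold change of high light over high CO2 for the 44 tested members, with standard errors derived from the edgeR fit as bars, by subgroup. Risen members are orange, fallen blue and not called grey. All 6 tested members of IId and all 8 of III are orange, while subgroup I splits into 4 risen, 4 not called and 1 fallen. In III, WRKY38, WRKY41 and WRKY55 needed their high light libraries to pass the low-count filter.

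Subgroup I holds the members with a pair of WRKY domains. All 9 encoded 2 signature copies, against 1 in each of the other 48 members. Of these 9, 4 rose, 1 fell and 4 were not called. The subgroup sum went from 77.4 ± 13.1 to 709 ± 102 RPKM (SD, n = 3 each). WRKY33 (AT2G38470), a substrate of the kinases MPK3 and MPK6 that is needed for synthesis of the phytoalexin camalexin, had 214, 340 and 354 counts in high CO2 against 19858, 18624 and 24484 under high light. It stood ninth among the members by RPKM in high CO2 and highest of all in high light. Its level went from 7.17 ± 2.06 to 468 ± 79.6 RPKM, a log2 fold change of 6.03 ± 0.28 (SE; edgeR adjusted p = 6.8e-07). WRKY25 (AT2G30250), which acts in heat tolerance, had 176, 221 and 276 counts against 6330, 7139 and 7869. The groups were far apart, with a log2 fold change of 4.89 ± 0.24 (SE; edgeR adjusted p = 8.3e-07). WRKY26 (AT5G07100), the closest relative of WRKY33 and also known from heat tolerance, had 31, 36 and 71 counts against 176, 134 and 225. Its high CO2 replicate 3 lay above the other high CO2 libraries. The log2 fold change was 1.85 ± 0.37 (SE; edgeR adjusted p = 0.0023), and 2.45 without that library.

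WRKY3 (AT2G03340), known with WRKY4 from resistance to necrotrophic fungi, had 594, 749 and 682 counts in high CO2 against 398, 508 and 399 under high light. All high light libraries lay below the high CO2 libraries, and the log2 fold change was -0.72 ± 0.14 (SE; edgeR adjusted p = 0.0021). By RPKM it held rank 3 in high CO2. WRKY4 had 308, 374 and 401 counts against 543, 619 and 604. It rose by 0.61 ± 0.15 on the log2 scale (SE; edgeR adjusted p = 0.0073), and with upper-quartile scaling was no longer called (0.35, adjusted p = 0.065). WRKY1, WRKY2, WRKY20 and WRKY32 were not called, their log2 fold changes being -0.22, -0.34, -0.10 and -0.18 (adjusted p by edgeR = 0.27, 0.23, 0.47 and 0.33). All 4 were called lower with upper-quartile scaling, at -0.49, -0.61, -0.37 and -0.45. WRKY1 was the second-highest member in high CO2, with 17.8 ± 2.94 RPKM, and had 15.3 ± 2.26 RPKM in high light.

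Subgroup IIa is the trio of WRKY18, WRKY40 and WRKY60, whose proteins form complexes with each other and act in defence and abscisic acid responses, in part as repressors. WRKY40 (AT1G80840) had 30, 32 and 28 counts in high CO2 against 6566, 5545 and 8157 under high light. The 3 high CO2 libraries were nearly equal and the high light libraries lay more than 100 times higher in counts. Its level went from 1.08 ± 0.0166 to 231 ± 50.8 RPKM, a log2 fold change of 7.73 ± 0.24 (SE; edgeR adjusted p = 2.2e-07), and it moved from rank 30 to rank 4. WRKY18 (AT4G31800) had 119, 173 and 111 counts against 830, 1245 and 661, a log2 fold change of 2.68 ± 0.24 (SE; edgeR adjusted p = 2.3e-05). WRKY60 had 54, 107 and 88 counts against 132, 118 and 173. Its groups did not overlap, but at 0.69 ± 0.27 it was not called (SE; edgeR adjusted p = 0.052). It was called higher in 8 of the 14 alternatives. Among them were DESeq2 (adjusted p = 0.035), limma-voom (adjusted p = 0.049), and edgeR with library totals (adjusted p = 0.044), without a low-count filter (adjusted p = 0.047), with DESeq2-type size factors (0.73, edgeR adjusted p = 0.044), without high CO2 replicate 3 (0.86, adjusted p = 0.033) and without high light replicate 2 (0.82, adjusted p = 0.045). Through WRKY40 the subgroup's share of the summed WRKY RPKM went from 3.28% ± 0.362 to 11.6% ± 0.696 (SD, n = 3 each).

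In subgroup IIb 2 of 8 members rose, WRKY47 was not called and 5 were too low to test. The subgroup's share of the summed WRKY RPKM went from 3.46% ± 0.116 to 6.12% ± 0.418 (SD, n = 3 each). WRKY6 (AT1G62300), a senescence and defence factor that represses the phosphate exporter gene PHO1, had 99, 163 and 119 counts in high CO2 against 6530, 6419 and 6751 under high light. Its high light libraries were close to each other, at 128 ± 7.18 RPKM against 2.60 ± 0.556 RPKM. The log2 fold change was 5.62 ± 0.20 (SE; edgeR adjusted p = 2.6e-07). WRKY42 (AT4G04450), another repressor of PHO1, was rare, with 9, 5 and 5 counts against 24, 13 and 14. Its log2 fold change of 1.33 ± 0.44 (SE; edgeR adjusted p = 0.025) was called in these 6 libraries. The call was lost with DESeq2 (adjusted p = 0.054), with upper-quartile factors (1.07, edgeR adjusted p = 0.057) and without any of 3 libraries. Without high CO2 replicate 2 the value was 1.18, without high CO2 replicate 3 it was 1.31 and without high light replicate 1 it was 0.98 (edgeR adjusted p = 0.084, 0.052 and 0.099). WRKY31 had 0 counts in high CO2 against 7, 13 and 11 under high light. Set against a floor of 3 counts over the group, this is at least 9.77-fold higher. WRKY61 had 0, 0 and 4 counts in high light and 0 in high CO2, and WRKY72 had 1 count in all. WRKY9 and WRKY36 had 4 and 15 counts over high CO2 and 1 and 49 over high light.

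Subgroup IIc, the largest with 14 members, had 7 risen, 1 fallen, 2 not called and 4 too low to test. WRKY75 (AT5G13080), known from phosphate starvation and leaf senescence, had the largest change of the family. It had 1, 2 and 0 counts in high CO2 against 484, 504 and 818 under high light. The ratio of scaled counts was 569-fold, with a 95% exact counting interval of 194 to 2762, and its fitted log2 fold change was 8.99 ± 0.48 (SE; edgeR adjusted p = 1.1e-06). The fitted value was 9.83 without high CO2 replicate 2 and 8.29 without replicate 3 of both groups. WRKY48 (AT5G49520), a negative regulator of basal defence, had 22, 21 and 20 counts against 1304, 2146 and 1550. This was a log2 fold change of 6.21 ± 0.23 (SE; edgeR adjusted p = 2.6e-07). WRKY28 (AT4G18170), which binds the promoter of the salicylic acid synthesis gene ICS1, had 7, 3 and 2 counts against 287, 270 and 115. High light replicate 3 was below the other high light libraries but far above all high CO2 libraries. Its log2 fold change was 5.68 ± 0.51 (SE; edgeR adjusted p = 2.4e-05), and 6.35 without high CO2 replicate 1.

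The pair with the lysine form of the signature, WRKY50 and WRKY51, which act in jasmonate repression at low oleic acid, both rose. WRKY51 had 11, 26 and 21 counts in high CO2 against 366, 289 and 369 under high light, and WRKY50 had 29, 53 and 39 against 158, 110 and 161. They rose by 4.06 ± 0.28 and 1.75 ± 0.26 on the log2 scale (SE; edgeR adjusted p = 4.8e-06 and 5.2e-04). WRKY45, an activator of the phosphate transporter gene PHT1;1, rose by 3.64 ± 0.19 and WRKY8, known from salt tolerance, by 2.05 ± 0.25 on the log2 scale (SE; edgeR adjusted p = 1.2e-06 and 1.5e-04). WRKY13 (AT4G39410), known from lignin formation in the stem, had 17, 15 and 12 counts in high CO2 against 4, 6 and 7 under high light. All libraries were low and the groups did not overlap. Its log2 fold change was -1.43 ± 0.37 (SE; edgeR adjusted p = 0.0083), and with DESeq2 it was not called (adjusted p = 0.052). WRKY57 and WRKY23 were not called, at -0.24 and 0.09 (edgeR adjusted p = 0.28 and 0.82), and with upper-quartile scaling WRKY57 was called lower at -0.51. Of the untested members, WRKY71 had 1, 1 and 0 counts in high CO2 against 10, 12 and 15 under high light, a ratio of 17.5 with a 95% exact counting interval of 4.51 to 150. WRKY12 had 25 and 22 counts over the groups, and WRKY43 and WRKY56 had 0 counts in all 6 libraries.

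In subgroup IId, whose proteins carry a calmodulin-binding stretch, all 6 tested members rose. The sum went from 41.1 ± 0.161 to 612 ± 52.5 RPKM (SD, n = 3 each), the second-largest of the 7 subgroups in high light. WRKY11 (AT4G31550), a negative regulator of basal resistance to bacteria, had 502, 564 and 471 counts in high CO2 against 11741, 12078 and 12582 under high light. Both groups were tight, at 13.4 ± 0.373 and 301 ± 15.3 RPKM. The log2 fold change was 4.49 ± 0.15 (SE; edgeR adjusted p = 2.2e-07). WRKY15 (AT2G23320), known from responses to reactive oxygen and salt, had 209, 287 and 239 counts against 7667, 6750 and 8403. Its log2 fold change was 4.88 ± 0.19 (SE; edgeR adjusted p = 3.2e-07), and it held rank 3 by RPKM in high light with 268 ± 37.1. WRKY39 (AT3G04670), which acts in heat responses, rose by 1.49 ± 0.16 on the log2 scale (SE; edgeR adjusted p = 7.2e-05). WRKY21, WRKY17 and WRKY7 rose by 1.18, 1.12 and 1.07. WRKY74 had 6, 3 and 5 counts in high CO2 against 1, 2 and 0 under high light, a ratio of 0.203 with a 95% exact counting interval of 0.0373 to 0.726.

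Subgroup IIe had 1 risen, 1 fallen, 3 not called and 2 untested members. WRKY22 (AT4G01250), which acts downstream of the flagellin receptor, had 43, 42 and 26 counts in high CO2 against 269, 362 and 305 under high light. The groups were well apart, with a log2 fold change of 2.99 ± 0.19 (SE; edgeR adjusted p = 3.7e-06). WRKY27 (AT5G52830), known from bacterial wilt symptoms, had 85, 92 and 70 counts against 43, 57 and 44. All high light libraries lay below the high CO2 libraries, and the log2 fold change was -0.86 ± 0.19 (SE; edgeR adjusted p = 0.0045). WRKY69, the highest member of the subgroup in high CO2 with 5.13 ± 0.869 RPKM, had 4.85 ± 1.04 RPKM in high light. WRKY29, WRKY65 and WRKY69 were not called, their log2 fold changes being -0.21, 0.00 and -0.08 (adjusted p by edgeR = 0.67, 0.998 and 0.75). WRKY14 had 2 counts in high CO2 and 0 in high light, and WRKY35 had 9, 8 and 4 counts against 1, 1 and 1. The ratio for WRKY35 was 0.135, with a 95% exact counting interval of 0.0258 to 0.452. The subgroup's share of the summed WRKY RPKM went from 4.94% ± 0.436 to 0.814% ± 0.121 (SD, n = 3 each).

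Subgroup III, whose zinc finger ends in histidine and cysteine in place of histidine and histidine, had 8 risen members and 1 too low to test. Of the 8, WRKY38, WRKY41 and WRKY55 needed their high light libraries to pass the low-count filter, so their rise let them be tested. The finger of this form was found in all 9 members and in 0 of the other 48. WRKY30 (AT5G24110), known from tolerance of oxidative stress, had 13, 29 and 15 counts in high CO2 against 3825, 2922 and 3629 under high light. It went from 0.693 ± 0.272 to 121 ± 20.6 RPKM, a log2 fold change of 7.43 ± 0.28 (SE; edgeR adjusted p = 2.9e-07). WRKY53 (AT4G23810), a regulator of leaf senescence that responds to hydrogen peroxide, had 59, 79 and 43 counts against 2643, 1544 and 2857. High light replicate 2 was lower than the other high light libraries. The log2 fold change was 5.22 ± 0.31 (SE; edgeR adjusted p = 2.3e-06). WRKY41 (AT4G11070), known from seed dormancy, had 4, 2 and 2 counts against 26, 38 and 53, a log2 fold change of 3.73 ± 0.47 (SE; edgeR adjusted p = 1.6e-04). Of the exon bases of WRKY53 and WRKY41, 20.5% and 41.7% also belong to an opposite-strand gene, and the strand setting of the counting is not stated here. Reads of the gene and its partner may therefore be mixed in these values, as in those of WRKY69 (20.4%) and, to a smaller extent, WRKY29.

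WRKY70 (AT3G56400), a node between salicylic acid and jasmonic acid signalling, had 791, 1136 and 904 counts in high CO2 against 3102, 2918 and 2936 under high light. It was the highest member in high CO2, at 30.6 ± 4.63 RPKM, and the eighth in high light, at 91.7 ± 5.75 RPKM. Its log2 fold change was 1.58 ± 0.15 (SE; edgeR adjusted p = 3.2e-05). WRKY54, which acts with WRKY70, rose by 0.87 ± 0.18 on the log2 scale (SE; edgeR adjusted p = 0.0032). WRKY46, known from basal defence and osmotic stress, had 109, 161 and 177 counts against 517, 653 and 1163, with high light replicate 3 well above the others, and rose by 2.30 ± 0.33 (SE; edgeR adjusted p = 4.1e-04). WRKY38, a negative regulator of basal defence, and WRKY55 were low in high CO2, with 18 and 9 counts over the group, and rose by 3.41 and 3.55. Without high CO2 replicate 2 the value for WRKY38 was 4.35, and without high CO2 replicate 3 that for WRKY55 was 4.22. WRKY62, known with WRKY38, had 2, 0 and 6 counts in high CO2 against 12, 6 and 10 under high light and was not tested.

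The order of the members changed between the conditions. In high CO2 the leading members by RPKM were WRKY70, WRKY1 and WRKY3, which made up 30.8% ± 1.28 of the summed WRKY RPKM (SD, n = 3). In high light the leading members were WRKY33, WRKY11 and WRKY15, which made up 47.3% ± 0.245 (SD, n = 3). WRKY1 moved from rank 2 to rank 17 and WRKY3 from rank 3 to rank 23. The 8 highest members held 55.6% ± 1.23 of the sum in high CO2 and 81.7% ± 0.676 in high light. The group means of neighbours in the order could lie within each other's spread between libraries, as for WRKY1 at 17.8 ± 2.94 and WRKY3 at 14.7 ± 1.73 RPKM in high CO2 and for WRKY11 at 301 ± 15.3 and WRKY15 at 268 ± 37.1 RPKM in high light. Within each of the 3 libraries WRKY1 was nevertheless above WRKY3, and WRKY11 above WRKY15. WRKY33, at 468 ± 79.6 RPKM, lay above WRKY11 in high light by more than their SDs.

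Alignment of the encoded proteins gave 17 pairs in which each member is the other's closest relative in the list, at 42.2% to 77.3% identity. Both genes were tested in 10 pairs, both rose in 6, and in 2 pairs one gene rose and the other fell. Of the 11 pairs with counts of both genes in every library, the ratio of the RPKM values did not overlap between the groups in 10, each with an exact permutation p of 0.1, the smallest possible. The exception was WRKY65 and WRKY69. Levels of single genes did not overlap, in 1 direction or the other, in 33.3% and 33.9% of all tested genes, and ratios of unrelated genes were not examined, so the count of 10 is not shown to be particular to relatives.

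WRKY4 and WRKY3, 72.9% identical, are a pair with opposite calls. The RPKM ratio of WRKY4 to WRKY3 was 0.442, 0.425 and 0.501 in high CO2 against 1.16, 1.04 and 1.29 under high light, so the order of the pair turned in all 3 high light libraries. The other such pair is WRKY22 and WRKY27, 45.0% identical. Their ratio went from 0.604, 0.545 and 0.443 in high CO2 to 7.46, 7.58 and 8.27 in high light. WRKY11 was 2.67, 3.48 and 3.37 times the level of WRKY17, 76.3% identical, in high CO2 and 33.1, 37.2 and 28.4 times in high light. WRKY33 was 5.36, 7.34 and 3.87 times the level of WRKY26, 58.3% identical, and then 87.7, 108 and 84.6 times. The ratio of WRKY15 to WRKY7, 47.9% identical, went from 1.92, 2.52 and 2.71 to 32.1, 29.6 and 37.7. In these 3 pairs the gene that was already higher per length in high CO2 also rose more. WRKY28 and WRKY8, 59.7% identical, turned their order, with ratios of 0.301, 0.0979 and 0.126 in high CO2 against 2.61, 3.04 and 1.09 under high light. WRKY18 to WRKY60, 67.9% identical, went from 1.72, 1.26 and 0.984 to 4.91, 8.23 and 2.98. The ratio of WRKY70 to WRKY54, 54.1% identical, went from 2.77, 2.54 and 2.56 to 4.22, 4.92 and 3.83. WRKY53 to WRKY41, 58.1% identical, went from 11.5, 30.7 and 16.7 to 79.1, 31.6 and 41.9, with the overlap on the opposite strand named above.

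**Figure D4:**
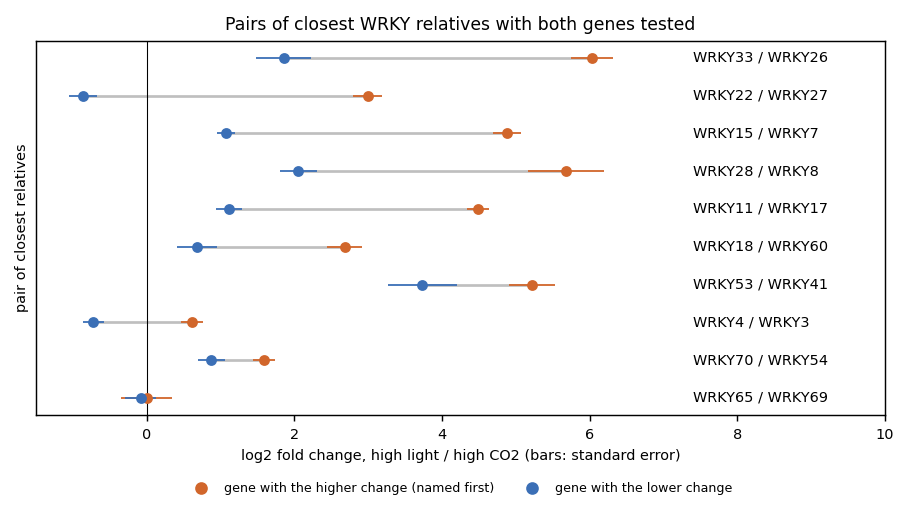
Log2 fold change of high light over high CO2 for the 10 pairs of closest relatives with both genes tested, with standard errors as bars. The first gene named at the right is the orange point and the other the blue point. WRKY33 at 6.03 and WRKY26 at 1.85 are the widest apart, and WRKY65 and WRKY69 lie together at 0.00 and -0.08.

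In the listed members W-boxes were present upstream of a larger share than in genes in general, a difference that was not tested. TTGACC or TTGACT on either strand was present in the 300 bases before the gene start of 24 of the 57 members (42.1%), against 8623 of 26712 protein-coding genes of the table (32.3%). The wider core TTGAC, which includes both forms, was in 61.4% of members against 50.4% of genes. More than 1 W-box was found in 17.5% of members and 7.93% of genes. Of the 30 risen members 16 held a W-box (53.3%), against 39.5% of the 5533 protein-coding genes called higher and 31.8% of all 18137 tested ones. The 3 fallen members held none, the 11 not called held 3 and the 13 untested held 5. Among the 16, WRKY28, WRKY41, WRKY55 and WRKY75 needed their high light libraries to pass the low-count filter. These shares are a description without a test. By subgroup, 5 of 9 in I, 3 of 8 in IIb, 6 of 14 in IIc, 4 of 7 in IId, 1 of 7 in IIe and 5 of 9 in III held one. Subgroup IIa held 0 of 3. WRKY40, among the most induced, had no TTGACC or TTGACT in this window, though it held the core TTGAC. WRKY33 and WRKY30, printed above, had 3 each.

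The listed partners of WRKY proteins and the listed kinases upstream of them rose, with SIB2 as the exception. Of 10 such genes 9 rose and SIB2 did not pass the test, where 30.4% of all tested genes were called higher. The list, like that of targets, was chosen with earlier results of these data known, so its count is a description. Their median log2 fold change was 1.58 against -0.06 over all tested genes. SIB1, a plastid and nuclear protein that binds WRKY33, had 270, 450 and 390 counts in high CO2 against 7414, 6377 and 8749 under high light. Its log2 fold change was 4.27 ± 0.24 (SE; edgeR adjusted p = 1.9e-06). Its relative SIB2 had 25.8 ± 5.37 and 26.3 ± 5.10 CPM and was not called (edgeR adjusted p = 0.92). MKS1, which holds MPK4 and WRKY33 together, had 57, 74 and 56 counts against 503, 366 and 479, a log2 fold change of 2.78 ± 0.19 (SE; edgeR adjusted p = 5.3e-06). The kinase genes MPK3, MPK4, MPK6, MKK4, MKK5 and MEKK1 rose by 1.02 to 2.04 on the log2 scale, and NPR1, the salicylic acid receptor gene, rose by 1.02.

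Most of the 14 listed genes reported as WRKY targets rose, counted without regard to whether a WRKY protein is reported to activate or repress them. This list, too, was chosen with earlier results of these data known, so its counts and median are a description. Of 14 listed, 12 rose, 1 fell and PHT1;1 was too low to test, where 30.4% of all tested genes were called higher and 30.3% lower. Of the 12, ACS2, JAZ8, RRTF1, CYP71A13 and FRK1 needed their high light libraries to pass the low-count filter, so their rise let them be tested. The median log2 fold change over the 13 tested, those genes included, was 4.99. ACS2, an ethylene synthesis gene and reported target of WRKY33, had 0, 1 and 0 counts in high CO2 against 322, 232 and 359 under high light. The ratio of scaled counts was 863-fold, with a 95% exact counting interval of 155 to 34130. Its fitted log2 fold change was 9.31 ± 0.51 (SE; edgeR adjusted p = 1.2e-06), 11.22 without high CO2 replicate 2 and 8.61 with limma-voom. PAD3, the last enzyme of camalexin synthesis and also a reported target of WRKY33, had 42, 248 and 45 counts against 27394, 30552 and 45501. High CO2 replicate 2 stood well above the other high CO2 libraries. The log2 fold change was 8.24 ± 0.74 (SE; edgeR adjusted p = 2.9e-05), and 9.52 without that library. PHO1, the phosphate exporter gene that WRKY6 and WRKY42 are known to repress, had 616, 616 and 417 counts in high CO2 against 166, 273 and 117 under high light. All high light libraries lay below, with a log2 fold change of -1.65 ± 0.26 (SE; edgeR adjusted p = 7.1e-04). Without high light replicate 1, JAZ8 and RRTF1 had too few counts to be tested. What brought about the changes of these genes was not tested.

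**Figure D5:**
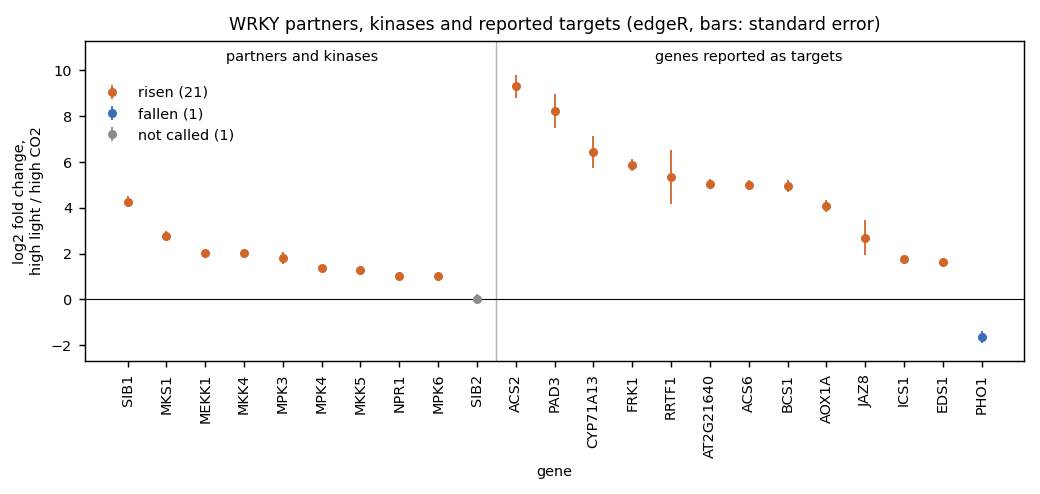
Log2 fold change of high light over high CO2 for the tested genes of both lists, with standard errors as bars. Of the 23 genes drawn 21 are risen, SIB2 is not called and PHO1 is fallen, with ACS2 at 9.31 and PHO1 at -1.65 as the extremes.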

How the data were processed

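Messenger RNA was sequenced from 6 *cat2-2* leaf libraries. Per the labels' protocols, RNA came from TRIzol and RNeasy extraction and went into TruSeq Stranded mRNA libraries. The submitters' processing notes name Trim Galore 0.3.3 for trimming, TopHat2 2.1.0 with TAIR10 for alignment and featureCounts (Subread 1.4.6) for counting. Their settings, strand included, are not stated in the sources used. The deposited values are raw counts per gene, not normalized, in 1 table. It has 33604 rows, and 2 stray header lines among them were dropped.

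Counts were tested with edgeR 4.0.16 (R 4.3.3): filterByExpr at a minimum of 10 counts kept 18504 genes with 99.9% of counts, TMM factors (0.932 to 1.07) scaled the libraries, and glmQLFit with robust dispersions and glmQLFTest compared the groups (4 residual degrees of freedom, biological coefficient of variation 0.177). Two-sided p-values were Benjamini-Hochberg adjusted over all tested genes, and called means an adjusted p under 0.05. Standard errors are the absolute log2 fold change, refitted without the small prior count that edgeR adds, over the square root of F. The refitted value can differ from the printed log2 fold change where counts are few. CPM and RPKM use TMM-scaled totals and union exon length in TAIR10.1, which matched 32835 loci and all 57 members. Intervals and floors (3 counts, 0.0477 CPM over the high CO2 group, 0.0451 CPM over the high light group) cover counting error alone. Proteins were aligned over their whole length with BLOSUM62. BLAST 2.17.0 found 0 other genes at 95% identity or more over at least 50% of a member's coding sequence. The fit was tested on simulated counts in which a small share of genes changed, evenly up and down, none of them rare. That test does not cover shifts as broad as here or members with few counts. The counts carry no coordinates, and those given are of TAIR10.1.

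Groups came from the sample titles. The alternatives were other scalings (RLE, upper quartile, library totals), no low-count filter, DESeq2 1.42.0, limma-voom (limma 3.58.1), a replicate block, and leaving out libraries. The members and lists were chosen with earlier results of these data known. Described with values were, per subgroup, the 3 largest called rises, the 2 largest called falls and the member with the highest mean RPKM, members at 0 counts in a group, closest pairs, and the 2 largest rises and largest fall of each list. Other members were described after their values were seen.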

Additional observations from a re-analysis of the deposited data

How the results depend on the processing

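In 14 alternatives the count of risen members ran from 28 to 34 (28 with upper-quartile factors, 34 without a low-count filter), and that of fallen members was 3 in 11 of them, 4 without a filter or with the replicate block, and 8 with upper-quartile factors. Leaving out 1 library or replicate 3 of both groups gave 31 to 34 risen and 3 fallen members. Of the 30 risen members 28 were called in every alternative, with WRKY4 and WRKY42 as exceptions, and of the 3 fallen 2, with WRKY13 as the exception. No direction of the 21 members picked per subgroup for their rise, fall or level reversed in 294 values. Other members given with a standard error, such as WRKY4 and WRKY60, were not part of this count. Without a filter WRKY31, WRKY36 and WRKY71 were also called higher and WRKY35 lower. Over all genes, upper-quartile factors gave 4386 rises and 7883 falls in place of 5631 and 5612. Partner and target genes had 21 rises in every alternative except 19 without high light replicate 1, and 1 fall in all. The difference in WRKY share of counts was 0.340 percentage points, 0.320 to 0.351 in the leave-outs and 0.358 outside the 10 most counted genes.

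The deviations of same-numbered libraries from their group means had correlations of 0.22, -0.02 and 0.41 in pairs 1, 2 and 3. For libraries of unlike number the correlations ran from -0.41 to 0.24, so only pair 3 lay above all of these. With 3 libraries per group these values cannot settle whether the numbers pair them. With the number as a replicate block, 31 members rose and 4 fell, and over all genes 5882 and 6070. Low counts limit the 13 untested members and the folds of members with few counts in high CO2, such as WRKY75. The edgeR p-values set the difference between the groups against the spread between the 3 libraries of a group. That spread was estimated for each gene with help from all tested genes.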

Other observations

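Of the 15 annotated WRKY genes outside the list, 3 rose, 1 fell, 3 were not called and 8 were too low to test. ABO3, also named WRKY63 and known from abscisic acid responses, had 1, 14 and 4 counts in high CO2 against 284, 454 and 434 under high light, a log2 fold change of 5.84 ± 0.46 (SE; edgeR adjusted p = 1.1e-05), and 7.11 without high CO2 replicate 2. WRKY67 had 0, 2 and 0 counts against 30, 56 and 28, a ratio of 53.9 with a 95% exact counting interval of 14.6 to 450. WRKY19, which also encodes a resistance protein and a kinase part, rose by 0.92 ± 0.20 on the log2 scale (SE; edgeR adjusted p = 0.0044). TTG2 (WRKY44), a trichome and seed coat factor, had 72, 127 and 166 counts against 36, 21 and 85. Its groups overlapped, and its log2 fold change of -1.45 ± 0.50 (SE; edgeR adjusted p = 0.034) was -1.02 and not called without high CO2 replicate 3 and -2.19 without high light replicate 3. It was also not called without high CO2 replicate 2, high light replicate 1 or high light replicate 2, nor without a low-count filter. RRS1 and TTR1, resistance proteins with a WRKY domain, and WRKY58 were not called.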
